A study of Gallus gallus with 8 samples.

Results

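The comparison described here set the epithelium of chicken dorsal skin at embryonic day 9 (Hamburger and Hamilton stage 35, H&H 35) against the same layer at day 7 (H&H 31). It used 4 of the 8 RNA-Seq libraries of the study, 2 for each stage, 1 of them from batch I and 1 from batch II, and these batches are the study's biological replicates. All genes of the deposited table that reached at least 1 RPKM, a read density scaled for transcript length and for the number of mapped reads, in at least 2 of the 8 libraries were tested, which left 11155 of 14642 genes. The embryos were White Leghorn chickens, and the labels give no treatment or genetic change for any group. The other 4 libraries held the mesenchyme of the same stages and batches, and they entered the same model and its estimate of the spread. Epithelium and mesenchyme were pulled apart after incubation in a calcium- and magnesium-free saline, so each library is the RNA of a whole tissue layer and not of 1 cell type. The number of embryos behind a library was not given in the sources used here.

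Feathers start as placodes, local thickenings of the epithelium that form over condensing dermal cells and then grow out as buds. WNT, FGF, ectodysplasin and Hedgehog ligands act between the layers during this time, while BMP ligands and their antagonists set the spacing of the buds. Outside and within the buds the embryonic epithelium becomes a stratified epidermis, in which basal cells rest on a basement membrane and express keratins such as KRT5 and KRT14. The interval from H&H 31 to H&H 35 covers bud formation and early bud elongation in dorsal skin.

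The 4 epithelium libraries had from 22050712 to 33620383 alignments, and replicate libraries correlated across genes with r of 0.994 at H&H 31 and 0.992 at H&H 35 on the log2 scale. Dermal genes were measured in the epithelium at widely different levels. In the 27 dermal genes that had at least 10 RPKM in the mesenchyme at both stages, the epithelium level was from 0.118% to 111% of the mesenchyme level at H&H 31 (median 6.22%) and from 0.282% to 72.1% at H&H 35 (median 1.92%). This share was higher at H&H 35 in 12 of them and lower in 15. Of the dermal transcription factors, PRRX1 was at 0.126% at H&H 31 and 0.379% at H&H 35, and TWIST1 at 0.118% at H&H 31 and 0.365% at H&H 35. SNAI2, another such factor, was at 75.8% at H&H 31 and 23.2% at H&H 35, and ZEB2 at 7.20% at H&H 31 and 1.73% at H&H 35. The collagen gene COL1A2 was at 40.9% at H&H 31 and 46.7% at H&H 35. In RNA from whole layers, fewer cells of a type and less RNA per cell cannot be told apart. Values below are RPKM as mean ± SD (n = 2) or for batch I and then batch II. Log2 changes are H&H 35 minus H&H 31 of log2(RPKM + 1), which understates the change of genes at low levels, and adjusted p-values are from limma with Benjamini-Hochberg adjustment. They set each change against a spread estimated from all 8 libraries of both layers and partly shared between genes. Where a call was lost on leaving out a library, that library is written as E or M for the layer, 7 or 9 for the day and I or II for the batch, so that E7-I is the day 7 epithelium of batch I.

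At an adjusted p under 0.05, 2070 genes (18.6% of those tested) were higher at H&H 35 and 1772 genes (15.9%) were lower. The mean RPKM changed by over 2-fold upward in 559 of these genes and downward in 763. It changed by over 4-fold upward in 212 and downward in 231. Both libraries of H&H 35 lay above both of H&H 31 in 4186 genes (37.5%) and below them in 3515 (31.5%), so separate stages were common beyond the called genes. The split between rises and falls depended on the scaling, since 53.9% of the called genes were higher with the deposited RPKM and 38.7% were higher (1464 against 2315 lower) once each library was scaled to an equal sum. Median-ratio scaling gave 47.1% and quantile normalization 50.7%. In the mesenchyme 2031 genes (18.2%) rose and 2404 genes (21.6%) fell over the same interval. Counts of rises and falls in the gene lists below stand beside the shares of all genes given here for the same layer. Of the 3842 genes called in the epithelium (34.4%), 827 were called the same way in the mesenchyme, 1005 the other way, and 2663 had a stage change that itself differed between the layers.

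**Figure D1:**
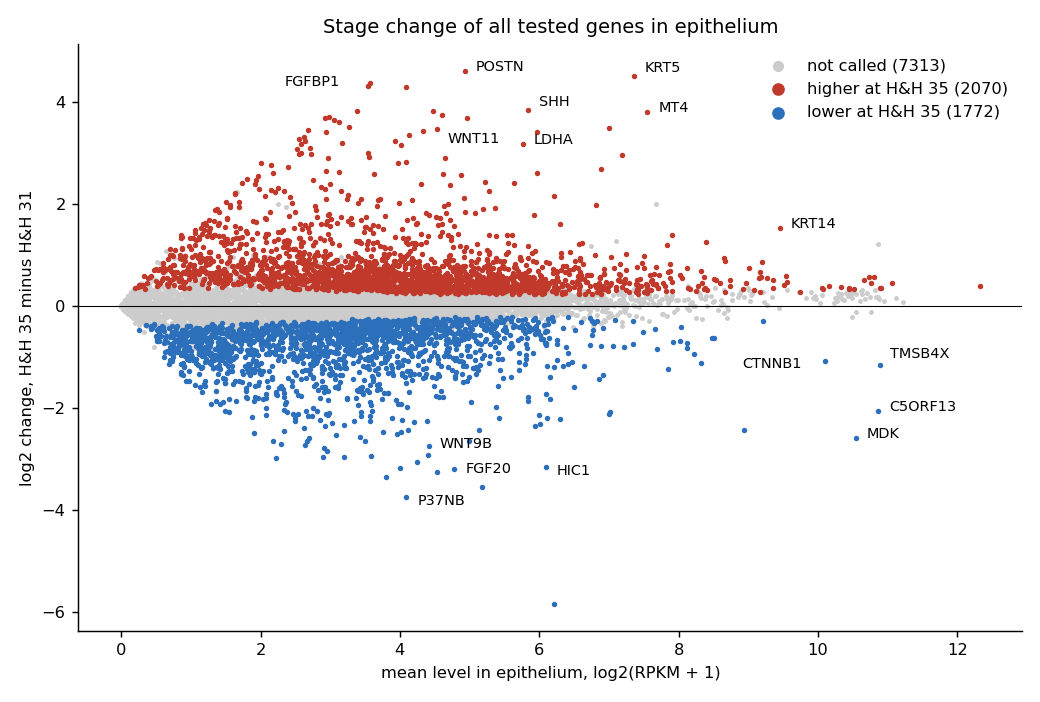
Log2 change of each tested gene in the epithelium (vertical axis, H&H 35 minus H&H 31) against its mean level (horizontal axis, log2(RPKM + 1)), with called genes in colour. Of 11155 genes, 2070 were called higher and 1772 lower, and the median change of all genes was 0.02.

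The 15 largest rises and the 15 largest falls were chosen among called genes with a gene symbol and no overlap between the stages. The separation of their libraries is therefore not a result. Genes given by identifier only were not ranked. The rises included 3 keratins and the ligands SHH and WNT11. POSTN, which encodes the matrix protein periostin, rose most, from 1.19 and 1.6 to 49.5 and 66.0 RPKM (log2 change 4.61 with SE 0.18, adjusted p = 1.16e-06). POSTN is also a dermal gene, and its epithelium level was 0.703% at H&H 31 and 18.1% at H&H 35 of that in the mesenchyme, where it went from 198 ± 12.6 to 319 ± 75.1 RPKM. The part of dermal cells in this rise was not tested.

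KRT5, the type II keratin of basal epidermal cells, was at 10.6 and 15.4 RPKM at H&H 31 and 342 and 284 RPKM at H&H 35 (log2 change 4.51 with SE 0.17, adjusted p = 1.14e-06). KRT15, another basal keratin, was at 16.3 and 24.7 RPKM at H&H 31 and 245 and 224 RPKM at H&H 35. KRT75, a keratin of the feather rachis and of hair follicles, was at 1.35 and 2.63 RPKM at H&H 31 and 47.4 and 33.9 RPKM at H&H 35. KRT75 was the lowest of these 3 keratins at both stages. MT4, a metallothionein that binds zinc, was at 20.3 and 28.1 RPKM at H&H 31 and 397 and 301 RPKM at H&H 35, a 14.4-fold rise.

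FGFBP1, a secreted protein that binds FGFs and frees them from the matrix, was at 0.125 and 0.102 RPKM at H&H 31 and 22.4 and 19.9 RPKM at H&H 35. It was barely detected at H&H 31 in either library. AQP3, a water and glycerol channel of keratinocytes, was at 0.354 and 0.313 RPKM at H&H 31 and 15.3 and 15.1 RPKM at H&H 35. PSCA and LY6E encode small surface proteins of the LY6 family, and their log2 changes were 4.28 and 3.67. LY6E was at 5.71 and 1.95 RPKM at H&H 31 and 67.2 and 46.2 RPKM at H&H 35, with uneven batches at both stages.

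GHRH, known as the hypothalamic growth hormone-releasing hormone, was at 0.333 and 0.395 RPKM at H&H 31 and 21.1 and 15.7 RPKM at H&H 35. NECAB1, a calcium-binding protein known from neurons, went from 0.0972 ± 0.0139 to 13.1 ± 1.57 RPKM, EMID1, a secreted EMI-domain protein, from 0.610 ± 0.643 to 16.6 ± 3.19 RPKM, and PLIN3, a coat protein of lipid droplets, from 0.0810 ± 0.0116 to 10.8 ± 1.65 RPKM. WNT11 and SHH, also among the 15 largest rises, are given with their pathways. All 15 rises held in each of 19 other settings of the analysis, which are listed with the processing.

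The 15 largest falls included the ligands FGF20 and WNT9B and the growth factor MDK. P37NB, the older name of LRRC17, a secreted leucine-rich repeat protein, was at 30.9 and 30.7 RPKM at H&H 31 and 1.20 and 1.5 RPKM at H&H 35 (log2 change -3.76 with SE 0.092, adjusted p = 1.39e-07). CA13, a carbonic anhydrase, was at 39.8 and 42.4 RPKM at H&H 31 and 2.84 and 3.96 RPKM at H&H 35, and HIC1, a transcriptional repressor, at 108 and 136 RPKM at H&H 31 and 12.6 and 12.5 RPKM at H&H 35.

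MDK, the heparin-binding growth factor midkine, was among the most abundant genes at H&H 31 and was at 2459.7 and 2668 RPKM at H&H 31 and 414 and 432 RPKM at H&H 35 (log2 change -2.60 with SE 0.12, adjusted p = 1.94e-06), a 6.06-fold fall. CPZ, a carboxypeptidase with a frizzled-like domain that binds WNT proteins, was at 13.3 and 11.2 RPKM at H&H 31 and 0.590 and 0.786 RPKM at H&H 35. LAMB4, a laminin beta chain, was at 64.4 and 43.3 RPKM at H&H 31 and 6.55 and 8.77 RPKM at H&H 35. These 3 genes were among the falls chosen for their size and for no overlap, so the separation of their libraries is not a result.

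CACNG3, an auxiliary subunit of ion channels, fell by 3.37 on the log2 scale, WBSCR17, which starts mucin-type O-glycosylation of proteins, by 3.07, DRD5, a dopamine receptor, by 2.79 and DPP6, an auxiliary protein of potassium channels, by 2.59. C6ORF186 fell from 27.7 ± 1.45 to 2.22 ± 0.821 RPKM. FGF20, WNT9B, CRABP-I and SCG2 complete the 15 largest falls and are given below. All 15 falls held in each of the 19 other settings.

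**Figure D2:**
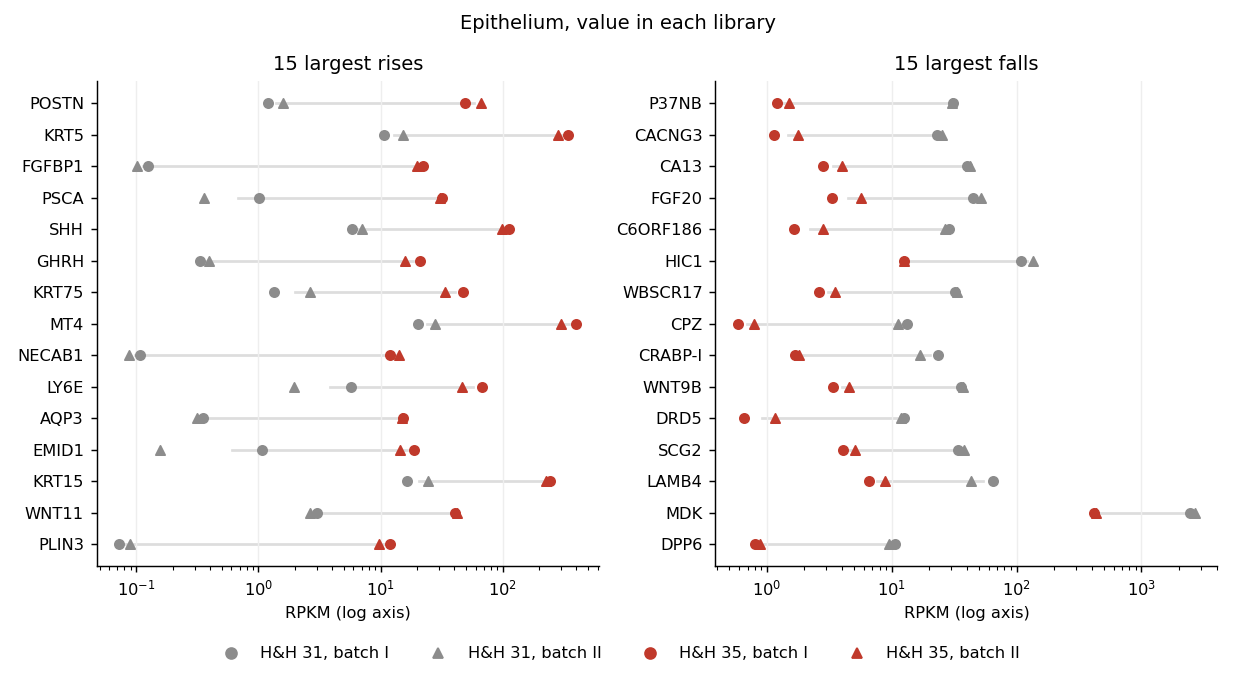
RPKM on a log10 axis for the 15 largest rises and 15 largest falls in the epithelium, with 1 point for each library, the stages in different colours and each gene on its own line. The genes were chosen among those with a gene symbol and for no overlap between the stages. POSTN is shown with 1.19 and 1.6 RPKM at H&H 31 and 49.5 and 66.0 RPKM at H&H 35.

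Among the 10 most abundant genes of the epithelium with a gene symbol, the clearest changes were falls. TMSB4X, thymosin beta 4, which binds actin monomers, was at 2449.7 and 2778 RPKM at H&H 31 and 1184 and 1152 RPKM at H&H 35 (log2 change -1.16 with SE 0.13, adjusted p = 0.000191). C5ORF13, the older name of NREP, was at 3237 and 2775 RPKM at H&H 31 and 654 and 775 RPKM at H&H 35 (log2 change -2.07 with SE 0.12, adjusted p = 4.83e-06). Both were abundant in each H&H 31 library and lower in each H&H 35 library, as were 31.5% of all genes.

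The other 8 were genes of translation with small changes. EEF1A, the elongation factor that brings tRNAs to the ribosome, was at 4385 and 4507 RPKM at H&H 31 and 5858 and 5703 RPKM at H&H 35 (log2 change 0.38 with SE 0.13, adjusted p = 0.0488). Its call did not hold without E7-I, E7-II, M7-I, M7-II, E9-I or E9-II (adjusted p from 0.103 to 0.206) or in 8 other settings. RPLP1, RPS3A, RPS24 and RPS20, proteins of the ribosome, had log2 changes of 0.064, 0.15, 0.083 and 0.12 and were not called with the deposited values, while RPLP1 was called higher under quantile normalization.

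Of the 61 tested genes of cytosolic ribosomal proteins, 17 rose and none fell, beside 18.6% and 15.9% of all genes, and their median log2 change was 0.24 against 0.02 for all genes. The mesenchyme also had 17 rises and no fall, beside 18.2% and 21.6% of all genes. In the epithelium all 61 log2 changes were above 0 with the deposited values. The count of rises ran from 3 to 22 over the settings. It was 3 without E7-I or without E7-II, 4 without E9-I, 7 without E9-II or without M7-II and 8 without M7-I. RPS13 was the only ribosomal gene that kept its call in all settings (log2 change 0.57 with SE 0.10, adjusted p = 0.00265). The calls of RPL17L (0.57), RPS23 (0.49) and RPS27A (0.47) did not hold in 1 or more. RPL17L was not called without E7-II (adjusted p = 0.0664) or in 1 other setting. RPS23 was not called without E7-II or E9-II (adjusted p = 0.102 and 0.0631) or in 1 other setting. RPS27A was not called without E7-I (adjusted p = 0.0634).

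Keratins are the intermediate filament proteins of epithelial cells. Of 11 alpha-keratins tested, 8 rose and none fell, beside 18.6% and 15.9% of all genes, with a median log2 change of 1.75. The count of rises was from 6 to 10 over the settings. KRT4, a keratin of stratified epithelia, was at 1.69 and 2.19 RPKM at H&H 31 and 22.8 and 30.5 RPKM at H&H 35 (log2 change 3.22 with SE 0.16, adjusted p = 2.48e-06). The list, with members that were not called, summed to 1056 and 1337 RPKM at H&H 31 and 2575 and 2420 RPKM at H&H 35. KRT14, the partner of KRT5 in basal cells, had the highest level of the 8 that rose. It was at 276 and 460.5 RPKM at H&H 31 and 1102 and 966 RPKM at H&H 35 (log2 change 1.53 with SE 0.27, adjusted p = 0.00232). Its call did not hold with a variance for that gene alone (adjusted p = 0.0604). KRT80 rose from 5.31 ± 0.394 to 20.3 ± 0.474 RPKM, and KRT9 and KRT12 rose from under 1 RPKM to 3.43 ± 2.13 RPKM and 3.15 ± 0.0287 RPKM. The mesenchyme had 5 of the 11 keratins higher and 2 lower, beside 18.2% and 21.6% of all genes.

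Transcription and splicing regulators of epidermis also moved mostly upward, with 18 of 27 higher and 2 lower, beside 18.6% and 15.9% of all genes. The list median log2 change was 0.86. CEBPB and CEBPA, factors of keratinocyte differentiation in the mouse, were the largest. CEBPB was at 1.6 and 1.55 RPKM at H&H 31 and 21.2 and 18.05 RPKM at H&H 35 (log2 change 2.999 with SE 0.13, adjusted p = 1.33e-06). CEBPA was at 2.77 and 3.76 RPKM at H&H 31 and 29.9 and 27.9 RPKM at H&H 35 (log2 change 2.82 with SE 0.19, adjusted p = 1.35e-05). KLF5, a Krüppel-like factor of proliferating epithelia, was at 28.5 and 32.9 RPKM at H&H 31 and 193 and 213 RPKM at H&H 35 (log2 change 2.69 with SE 0.17, adjusted p = 8.64e-06). GATA3, which acts in epidermal barrier and hair formation in the mouse, was at 10.2 and 11.2 RPKM at H&H 31 and 63.9 and 59.6 RPKM at H&H 35 (log2 change 2.42 with SE 0.11, adjusted p = 1.65e-06). None of these 4 genes, chosen for their large changes, had overlapping stages. In 37.5% of all genes both H&H 35 libraries lay above both H&H 31 libraries. Of the 27 regulators, 13 rose and 2 fell in the mesenchyme, beside 18.2% and 21.6% of all genes.

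KLF4, needed for the skin barrier in the mouse, rose from 8.31 ± 1.33 to 27.2 ± 2.52 RPKM, and GRHL3, a grainyhead factor of epidermal closure and barrier, rose from 24.5 ± 1.48 to 66.2 ± 12.3 RPKM. GRHL2 had a log2 change of 0.89, TFAP2C of 0.87, ZNF750 of 0.86 and MAF of 2.28, and each was called. ELF3, an epithelial ETS factor, went the other way from 4.44 ± 0.312 to 0.541 ± 0.0928 RPKM (log2 change -1.82 with SE 0.12, adjusted p = 1.00e-05). The other fall was that of TFAP2B (-0.51), whose call did not hold without E7-I, E7-II, M7-I, M7-II, E9-I or E9-II (adjusted p from 0.0518 to 0.136) or in 4 other settings.

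Of 15 genes of the epidermal barrier and cornification, 6 rose and 2 fell, with a median of 0.37 and between 2 and 8 rises over the settings. Among all genes, 18.6% rose and 15.9% fell. AQP3, given above, had the largest change of the list. S100A11, a calcium-binding protein of the cornified envelope, went from 285 ± 3.28 to 528 ± 71.2 RPKM (log2 change 0.88 with SE 0.17, adjusted p = 0.00411), and ANXA1, annexin A1, from 0.825 ± 0.748 to 4.58 ± 1.01 RPKM (log2 change 1.66 with SE 0.31, adjusted p = 0.00317). Both calls depended on the shared variance, since S100A11 was not called with a variance for that gene alone (adjusted p = 0.0683) and ANXA1 was not called with a variance for that gene alone (adjusted p = 0.0643). ELOVL7, an elongase of fatty acids, was called in every setting (log2 change 0.72 with SE 0.13, adjusted p = 0.00246). UGCG, which makes glucosylceramide, fell (log2 change -0.53 with SE 0.11, adjusted p = 0.00556). The mesenchyme had 5 of the 15 genes higher and 1 lower, beside 18.2% and 21.6% of all genes.

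Of 9 desmosome genes, which encode the junctions that anchor keratin filaments, 5 rose and 1 fell, beside 18.6% and 15.9% of all genes. The list median was 0.62. PKP3, plakophilin 3, was at 10.997 and 13.9 RPKM at H&H 31 and 48.1 and 45.4 RPKM at H&H 35 (log2 change 1.84 with SE 0.13, adjusted p = 1.82e-05). Its H&H 35 level was 3.76-fold that at H&H 31. Both of its H&H 35 libraries lay above both of H&H 31, as in 37.5% of all genes. The desmosomal cadherin DSC2 rose from 29.3 ± 0.651 to 60.8 ± 9.36 RPKM, PKP1 from 26.3 ± 0.363 to 45.4 ± 3.87 RPKM and JUP, plakoglobin, from 66.7 ± 6.32 to 110.4 ± 13.1 RPKM. PKP2 fell from 4.21 ± 0.160 to 2.18 ± 0.308 RPKM (log2 change -0.71 with SE 0.12, adjusted p = 0.00211), so plakophilins moved in both directions. Counts for this list were the same in the mesenchyme, with 5 higher and 1 lower, beside 18.2% and 21.6% of all genes.

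Of 27 adherens and tight junction genes 4 rose and 6 fell, beside 18.6% and 15.9% of all genes, with a median of -0.14 that was -0.043 without E7-II. CTNNB1, beta-catenin, which acts both in adherens junctions and in WNT signalling, was the most abundant member and was at 1436 and 1559 RPKM at H&H 31 and 723 and 696 RPKM at H&H 35 (log2 change -1.08 with SE 0.10, adjusted p = 6.16e-05). PVRL1, nectin 1, rose from 12.1 ± 1.14 to 34.7 ± 0.739 RPKM and CLDN1, a claudin of epidermal tight junctions, rose from 126 ± 4.93 to 227 ± 8.12 RPKM. CLDN10 fell from 33.3 ± 2.52 to 12.1 ± 1.20 RPKM and the cadherin CDH4 from 2.83 ± 0.298 to 0.373 ± 0.131 RPKM.

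**Figure D3:**
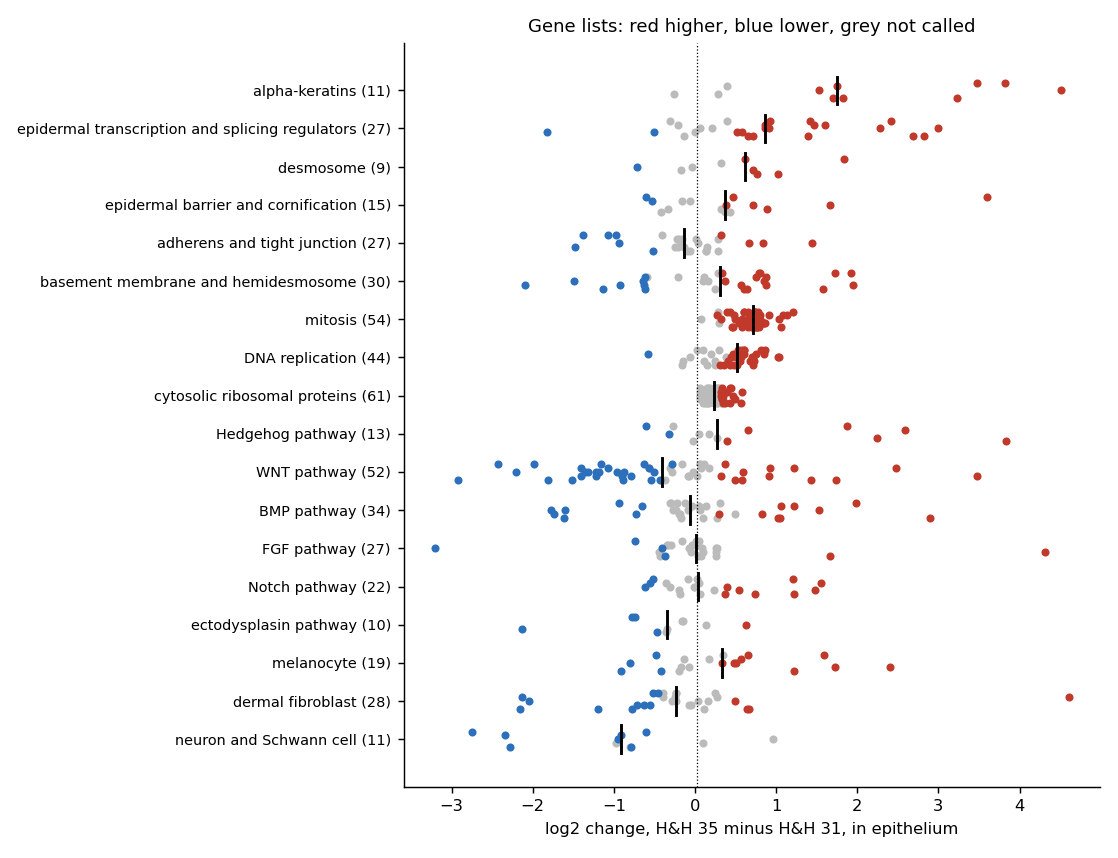
Log2 change from H&H 31 to H&H 35 in the epithelium for the tested genes of each list (points), with the list median as a black bar, the number tested in brackets and the median of all genes (0.02) as a dotted line. The alpha-keratin median lies at 1.75, the mitosis median at 0.71 and the WNT pathway median at -0.40.

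Genes of the basement membrane and hemidesmosome changed often, with 15 of 30 higher and 8 lower, beside 18.6% and 15.9% of all genes. The list median was 0.31. Among the 8 laminins tested in this list, the networks on which basal cells rest, 5 rose and 2 fell. The list does not hold LAMB4, given above for its fall (log2 change -2.65). LAMA5, the alpha chain of laminin 511, was at 9.54 and 10.7 RPKM at H&H 31 and 32.8 and 38.7 RPKM at H&H 35 (log2 change 1.72 with SE 0.12, adjusted p = 1.56e-05). LAMB3, a chain of laminin 332, rose from 2.11 ± 0.115 to 8.34 ± 1.39 RPKM. LAMA3, another chain of laminin 332, fell from 43.1 ± 2.20 to 14.8 ± 2.76 RPKM (log2 change -1.49 with SE 0.14, adjusted p = 7.14e-05). LAMB3 and LAMA3 therefore changed in opposite directions. Of the 30 genes of the list, 16 rose and 4 fell in the mesenchyme, beside 18.2% and 21.6% of all genes.

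NID1, nidogen 1, which links laminin to type IV collagen, was at 211 and 206 RPKM at H&H 31 and 40.6 and 57.0 RPKM at H&H 35 (log2 change -2.09 with SE 0.15, adjusted p = 1.52e-05). COL7A1, the collagen of anchoring fibrils, was at 3.81 and 4.62 RPKM at H&H 31 and 16.6 and 21.7 RPKM at H&H 35 (log2 change 1.95 with SE 0.15, adjusted p = 2.25e-05). The 4 chains of type IV collagen in that group all rose (median 0.74), beside 18.6% of all genes. COL4A5 rose from 27.7 ± 1.82 to 50.8 ± 4.75 RPKM and COL4A1 from 0.767 ± 0.259 to 2.23 ± 0.0614 RPKM, while the calls of COL4A2 and COL4A6 did not hold in every setting. COL4A2 was not called without E7-II or E9-I (adjusted p = 0.0643 and 0.0517) or in 1 other setting. COL4A6 was not called without E7-I, E7-II, M7-I, M7-II or E9-II (adjusted p from 0.0541 to 0.18) or in 4 other settings. ITGB4, the hemidesmosomal integrin, rose from 9.26 ± 0.382 to 16.9 ± 2.23 RPKM.

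SHH, the Hedgehog ligand of feather buds, was at 5.89 and 7.05 RPKM at H&H 31 and 113 and 99.0 RPKM at H&H 35 (log2 change 3.84 with SE 0.13, adjusted p = 1.14e-06). Its mean was 16.4-fold higher at H&H 35. Of 13 tested Hedgehog pathway genes 6 rose and 2 fell, beside 18.6% and 15.9% of all genes. The list median was 0.27, or 0.15 without E7-I and 0.47 without E7-II. PTCH1, a receptor that is also a target of the pathway, was at 2.06 and 2.17 RPKM at H&H 31 and 13.1 and 14.5 RPKM at H&H 35 (log2 change 2.24 with SE 0.13, adjusted p = 5.63e-06). The mesenchyme had 5 of the 13 pathway genes higher and 2 lower, beside 18.2% and 21.6% of all genes.

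HHIP, a Hedgehog-binding inhibitor and target, was near 0 at H&H 31 and went from 0.0924 ± 0.0132 to 2.998 ± 0.101 RPKM (log2 change 1.87 with SE 0.12, adjusted p = 1.02e-05). GLI2, the pathway's main transcriptional activator, rose from 37.4 ± 1.58 to 59.2 ± 3.20 RPKM. The calls of GLI3 (0.39), SUFU (-0.61) and CDON (-0.32) were not stable. GLI3 was not called without E7-I, M7-I, M7-II, E9-I or E9-II (adjusted p from 0.0504 to 0.167) or in 2 other settings. SUFU, a negative regulator, was not called with a variance for that gene alone (adjusted p = 0.0591). CDON, a coreceptor, was not called without E7-I, E7-II or E9-I (adjusted p = 0.0564, 0.142 and 0.125) or in 2 other settings.

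The WNT pathway genes fell more often than they rose, with 26 of 52 lower and 12 higher, beside 15.9% and 18.6% of all genes. The list median was -0.40. Over the settings from 20 to 27 fell and from 7 to 12 rose. Among 14 ligands, 8 fell, 4 rose and 2 were not called, and the median was -1.19. WNT9B was at 35.7 and 37.3 RPKM at H&H 31 and 3.38 and 4.55 RPKM at H&H 35 (log2 change -2.93 with SE 0.14, adjusted p = 2.48e-06). WNT3 was at 24.3 and 22.1 RPKM at H&H 31 and 3.62 and 4.94 RPKM at H&H 35 (log2 change -2.21 with SE 0.15, adjusted p = 1.07e-05), and WNT7A at 58.6 and 72.2 RPKM at H&H 31 and 12.98 and 18.9 RPKM at H&H 35 (log2 change -1.98 with SE 0.21, adjusted p = 0.000148). These 3 ligands can act through beta-catenin.

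WNT6, the most abundant ligand at H&H 31, was at 166 and 177 RPKM at H&H 31 and 66.9 and 66.6 RPKM at H&H 35. WNT4 fell from 45.2 ± 0.866 to 16.5 ± 1.89 RPKM, WNT2B from 13.7 ± 0.735 to 3.21 ± 0.158 RPKM and WNT3A from 21.4 ± 3.30 to 9.09 ± 1.98 RPKM, and WNT7B fell by 1.22 on the log2 scale. The rises were in WNT11, WNT5A, WNT5B and WNT16. WNT11, known for beta-catenin independent signalling, was at 2.99 and 2.64 RPKM at H&H 31 and 40.4 and 42.1 RPKM at H&H 35 (log2 change 3.47 with SE 0.079, adjusted p = 1.39e-07). WNT5A, likewise known for such signalling, was at 25.98 and 29.5 RPKM at H&H 31 and 55.9 and 51.4 RPKM at H&H 35 (log2 change 0.93 with SE 0.13, adjusted p = 0.000698), and WNT5B rose from 1.10 ± 0.243 to 4.61 ± 0.153 RPKM. WNT16 rose from 0.0239 ± 0.0338 to 4.96 ± 2.43 RPKM. WNT10A had 24.3 ± 0.239 to 26.4 ± 2.39 RPKM (log2 change 0.11 with SE 0.11, adjusted p = 0.468) and was not called.

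WNT receptors moved both ways, with 5 of 13 higher and 5 lower, beside 18.6% and 15.9% of all genes. FZD10 was at 104 and 100.1 RPKM at H&H 31 and 38.2 and 37.5 RPKM at H&H 35 (log2 change -1.41 with SE 0.11, adjusted p = 2.41e-05). LGR5 and LGR4, receptors for R-spondins, rose from 3.17 ± 1.25 to 12.7 ± 2.91 RPKM and from 27.2 ± 0.700 to 64.9 ± 1.95 RPKM, while their relative LGR6 fell from 11.9 ± 0.988 to 4.53 ± 0.00249 RPKM. Of 9 secreted antagonists, 4 fell and 2 rose, beside 15.9% and 18.6% of all genes. FRZB, which binds WNT proteins outside the cell, was at 28.8 and 27.9 RPKM at H&H 31 and 3.80 and 5.17 RPKM at H&H 35 (log2 change -2.43 with SE 0.13, adjusted p = 3.00e-06). Of 7 intracellular members, 5 fell and 1 rose, beside the same shares of all genes. AXIN2, a widely used target of beta-catenin signalling, was at 27.3 and 37.2 RPKM at H&H 31 and 16.01 and 17.2 RPKM at H&H 35 (log2 change -0.90 with SE 0.15, adjusted p = 0.0016). APCDD1 fell from 73.4 ± 0.401 to 37.3 ± 4.33 RPKM, ZNRF3 from 19.2 ± 1.84 to 7.08 ± 0.516 RPKM and RNF43 from 8.82 ± 0.488 to 4.39 ± 0.825 RPKM, all of them inhibitors of the pathway at the membrane.

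**Figure D4:**
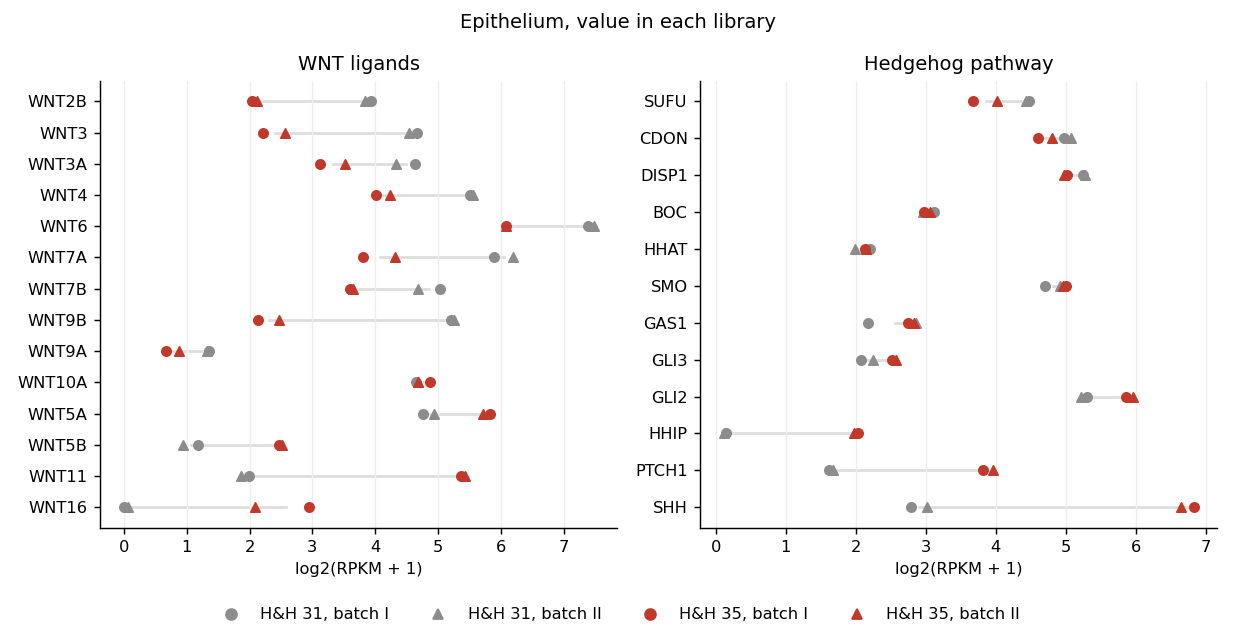
Levels of WNT ligands and Hedgehog pathway genes in the 4 epithelium libraries as log2(RPKM + 1) on the horizontal axis, 1 point for each library, with the stages in different colours. WNT9B, WNT3 and WNT7A lie lower at H&H 35, and SHH, PTCH1 and WNT11 lie higher, with SHH at 6.47 ± 0.825 RPKM and 106 ± 9.68 RPKM.

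In the BMP pathway 9 of 34 genes rose and 7 fell, beside 18.6% and 15.9% of all genes. The median of -0.058 had no stable sign, since it was 0.091 without E7-II, 0.057 without E9-I, -0.022 without E7-I and -0.13 without E9-II. Of 7 ligands, BMP5 and BMP6 rose and BMP3 and BMP7 fell, while BMP2, BMP4 and GDF10 were not called. BMP5 was at 0.198 and 0.156 RPKM at H&H 31 and 4.35 and 3.04 RPKM at H&H 35 (log2 change 1.98 with SE 0.15, adjusted p = 2.68e-05), and BMP3 at 5.30 and 7.07 RPKM at H&H 31 and 0.807 and 1.98 RPKM at H&H 35 (log2 change -1.62 with SE 0.27, adjusted p = 0.00169). BMP7 (-0.66) was not called without E7-I, E7-II, E9-I or E9-II (adjusted p from 0.0876 to 0.207) or in 5 other settings. BMP6 (0.30) was not called without E7-I, E7-II, E9-I or E9-II (adjusted p from 0.0639 to 0.122) or in 2 other settings.

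Of 12 extracellular antagonists, 4 fell and 1 rose, beside 15.9% and 18.6% of all genes. The 12 include SOSTDC1, which was not called, is not among the 34 BMP pathway genes and also counts as a WNT antagonist. FST, follistatin, was at 30.3 and 38.4 RPKM at H&H 31 and 8.39 and 10.2 RPKM at H&H 35 (log2 change -1.78 with SE 0.15, adjusted p = 3.80e-05), and NBL1 fell from 135 ± 3.73 to 43.8 ± 1.51 RPKM. Of 7 target genes, 5 rose and none fell, beside 18.6% and 15.9% of all genes, with a median of 1.02. MSX2, a homeobox target of BMP signalling, was at 3.90 and 6.14 RPKM at H&H 31 and 44.7 and 41.4 RPKM at H&H 35 (log2 change 2.90 with SE 0.17, adjusted p = 6.48e-06). ID3 rose from 55.5 ± 4.46 to 117 ± 9.97 RPKM, ID2 from 70.4 ± 9.68 to 125 ± 9.61 RPKM, SMAD6 from 1.51 ± 0.0618 to 4.09 ± 0.0297 RPKM and GHOX-7, the older name of MSX1, from 3.92 ± 0.571 to 10.4 ± 1.01 RPKM. BMPR1B, a type I receptor, fell from 6.15 ± 0.912 to 1.17 ± 0.513 RPKM (log2 change -1.73 with SE 0.17, adjusted p = 0.000108). The mesenchyme had 13 of the 34 BMP pathway genes higher and 6 lower, beside 18.2% and 21.6% of all genes.

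The FGF pathway had 2 of 27 genes higher and 4 lower, beside 18.6% and 15.9% of all genes. Its median of 0.0080 turned to -0.074 under equal sum scaling, -0.026 under median-ratio scaling, -0.0053 under quantile normalization and -0.060 without E9-II. The falls numbered 7 under equal sum or median-ratio scaling, 2 under quantile normalization and 2 without E7-II or without E9-I. FGF20, a ligand made by placodes, was at 44.7 and 52.4 RPKM at H&H 31 and 3.31 and 5.70 RPKM at H&H 35 (log2 change -3.20 with SE 0.23, adjusted p = 1.48e-05). Its H&H 35 level was 10.8-fold lower. FGF18, which is expressed in feather and hair skin, was at 0.223 and 0.182 RPKM at H&H 31 and 3.25 and 2.42 RPKM at H&H 35 (log2 change 1.66 with SE 0.14, adjusted p = 3.87e-05), and the third large change was the rise of FGFBP1. The fall of FGF13, an intracellular relative of the FGFs (log2 change -0.74 with SE 0.19, adjusted p = 0.0142), was not called without E7-I or E9-I (adjusted p = 0.103 and 0.0951) or in 2 other settings.

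In the ectodysplasin pathway, which acts in placode formation, 4 of 10 genes fell and 1 rose, beside 15.9% and 18.6% of all genes. The list median was -0.35. EDAR, the receptor of placode cells, was at 40.3 and 44.5 RPKM at H&H 31 and 22.6 and 27.4 RPKM at H&H 35 (log2 change -0.74 with SE 0.12, adjusted p = 0.00168). TNFRSF19, a related receptor, was at 104 and 101 RPKM at H&H 31 and 17.3 and 29.4 RPKM at H&H 35 (log2 change -2.14 with SE 0.21, adjusted p = 0.000101). TNFAIP3, an inhibitor and target of NF-kappaB, fell from 7.09 ± 0.144 to 3.72 ± 0.186 RPKM. The rise of EDA2R (0.62) was not called without E7-II, M7-I, M7-II, E9-I or E9-II (adjusted p from 0.0627 to 0.227) or in 6 other settings.

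In the Notch pathway 8 of 22 genes rose and 3 fell, beside 18.6% and 15.9% of all genes. The list median of 0.042 turned to -0.0088 under equal sum scaling and was 0.084 without E9-I and 0.020 without E9-II. Only 1 of the 3 falls held without E9-I. JAG1, a Notch ligand, was at 4.94 and 6.16 RPKM at H&H 31 and 17.1 and 19.3 RPKM at H&H 35 (log2 change 1.56 with SE 0.14, adjusted p = 6.16e-05). NOTCH1 was at 9.17 and 11.05 RPKM at H&H 31 and 21.4 and 28.8 RPKM at H&H 35 (log2 change 1.22 with SE 0.16, adjusted p = 0.000565). NRARP, a target and inhibitor of Notch signalling, rose from 9.45 ± 0.646 to 23.2 ± 1.51 RPKM, JAG2 from 32.5 ± 0.971 to 55.3 ± 7.05 RPKM and DTX1, a Deltex ligase, from 0.104 ± 0.00150 to 2.07 ± 0.0484 RPKM. None of these 5 genes, chosen with their values known, had overlapping stages, so this separation is not a result. Both H&H 35 libraries lay above both of H&H 31 in 37.5% of all genes. In the mesenchyme 13 of the 22 Notch pathway genes rose and none fell, beside 18.2% and 21.6% of all genes. The list median there was 0.45.

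Cell cycle genes rose in the epithelium and fell in the mesenchyme. Of 54 mitosis genes tested, 50 rose and none fell in the epithelium, beside 18.6% and 15.9% of all genes. The list median log2 change was 0.71, and all 54 changes were above 0. Over the settings from 42 to 52 rose. In the mesenchyme all 54 fell, beside 21.6% of all genes, with a median of -0.86. The stage change differed between the layers in 54 of 54 by the interaction test, beside 42.4% of all genes. Of 44 DNA replication genes, 31 rose and 1 fell in the epithelium (median 0.52, from 26 to 32 rises over the settings), none rose and 42 fell in the mesenchyme (median -0.76), and 39 differed between the layers.

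MKI67, the proliferation marker, was at 24.7 and 21.9 RPKM at H&H 31 and 48.6 and 52.9 RPKM at H&H 35 (log2 change 1.09 with SE 0.14, adjusted p = 0.000458). In the mesenchyme it went from 34.9 ± 0.727 to 23.7 ± 5.62 RPKM. SMC2, a condensin subunit, was at 62.7 and 49.8 RPKM at H&H 31 and 123 and 139.5 RPKM at H&H 35 (log2 change 1.21 with SE 0.15, adjusted p = 0.000399). CENPA, the histone of centromeres, was at 8.70 and 7.51 RPKM at H&H 31 and 19.5 and 18.4 RPKM at H&H 35 (log2 change 1.13 with SE 0.11, adjusted p = 8.08e-05), and ANLN, which acts in cytokinesis, rose from 18.5 ± 0.509 to 39.8 ± 1.39 RPKM. For each of these 4 genes, both H&H 35 libraries were above both H&H 31 libraries, as in 37.5% of all genes. The 4 were chosen for their large changes, so this separation is not a result.

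Among replication genes, RRM2, which supplies deoxyribonucleotides, was at 98.5 and 99.0 RPKM at H&H 31 and 224 and 180.2 RPKM at H&H 35 (log2 change 1.02 with SE 0.13, adjusted p = 0.0004). CCNE2, a cyclin of the start of S phase, rose from 5.74 ± 0.165 to 12.8 ± 0.577 RPKM, CDT1, which licenses origins, from 17.2 ± 1.90 to 31.8 ± 4.71 RPKM and PCNA, the sliding clamp, from 205 ± 3.65 to 313 ± 26.7 RPKM. GMNN, geminin, which blocks relicensing by CDT1, was the only member that fell, at 78.0 and 74.4 RPKM at H&H 31 and 53.2 and 47.8 RPKM at H&H 35 (log2 change -0.58 with SE 0.084, adjusted p = 0.000815). It was lower in both H&H 35 libraries than in either H&H 31 library, as were 31.5% of all genes.

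**Figure D5:**
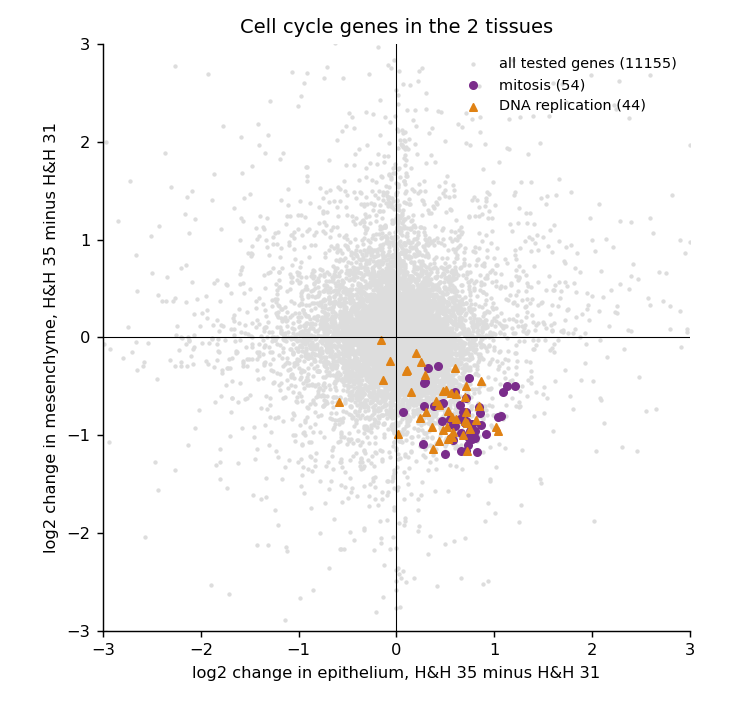
Log2 stage change in the epithelium (horizontal axis) against that in the mesenchyme (vertical axis), H&H 35 minus H&H 31, for all tested genes in grey and for mitosis and DNA replication genes in colour, with both axes limited to 3 in each direction so that genes beyond are not drawn. The mitosis genes lie at the lower right, with epithelial rises and mesenchymal falls, with medians of 0.71 and -0.86.

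In glycolysis, 9 of 21 genes rose and 1 fell (median 0.25, from 3 to 9 rises over the settings), while 4 rose and 11 fell in the mesenchyme. The epithelial rises numbered 3 without E7-I, 4 without E7-II and 5 without E9-I, and the median was 0.15 without E9-II. Of all genes, 18.6% rose and 15.9% fell in the epithelium, and 18.2% rose and 21.6% fell in the mesenchyme. Under equal sum scaling 4 glycolysis genes rose and 3 fell in the epithelium. LDHA, lactate dehydrogenase A, which makes lactate from pyruvate, was at 10.5 and 9.15 RPKM at H&H 31 and 80.6 and 113 RPKM at H&H 35 (log2 change 3.16 with SE 0.15, adjusted p = 2.02e-06). Its mean rose 9.87-fold, and no other glycolysis gene called higher exceeded the 1.80-fold of ENO1. ENO1, enolase, rose from 417 ± 16.6 to 752 ± 61.9 RPKM and PGAM1, a mutase of the same pathway, from 151 ± 4.29 to 256 ± 22.1 RPKM. GPI, which converts glucose 6-phosphate to fructose 6-phosphate, fell from 202 ± 18.8 to 119.5 ± 7.76 RPKM (log2 change -0.75 with SE 0.094, adjusted p = 0.000387).

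Of 15 immediate early genes, which respond within minutes to growth factors or to tissue handling, 4 rose and 1 fell. Among all genes, 18.6% rose and 15.9% fell. MYC was at 5.21 and 6.78 RPKM at H&H 31 and 26.4 and 29.98 RPKM at H&H 35 (log2 change 2.07 with SE 0.20, adjusted p = 9.42e-05). FOSL2 rose from 0.170 ± 0.0102 to 2.48 ± 0.0878 RPKM, and JUN went from 31.8 ± 3.77 to 55.2 ± 0.919 RPKM (log2 change 0.78 with SE 0.16, adjusted p = 0.00581). JUN was not called with a variance for that gene alone (adjusted p = 0.0777). EGR1 was uneven between replicates, at 32.3 and 71.6 RPKM at H&H 31 and 29.8 and 18.8 RPKM at H&H 35 (log2 change -0.99 with SE 0.33, adjusted p = 0.0456). It was not called without E7-II, M7-I, M7-II, E9-II, M9-I or M9-II (adjusted p from 0.0569 to 0.27) or in 5 other settings.

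Genes of other cell types that skin can hold were examined in the same libraries. Of 19 melanocyte genes, 9 rose and 4 fell, beside 18.6% and 15.9% of all genes. The list median was 0.33, or 0.14 without E7-II and 0.21 without E9-II. The rises numbered 6 without E9-II, and only 1 of the 4 falls held without E7-I or without E9-I. The largest rises were in TYRP1, GPR143, TYR and DCT. TYRP1 was at 20.5 and 10.2 RPKM at H&H 31 and 67.1 and 97.0 RPKM at H&H 35 (log2 change 2.40 with SE 0.31, adjusted p = 0.000461), and TYR, tyrosinase, at 13.8 and 8.77 RPKM at H&H 31 and 38.7 and 32.2 RPKM at H&H 35 (log2 change 1.59 with SE 0.20, adjusted p = 0.000453). DCT rose from 10.8 ± 0.0916 to 26.5 ± 0.303 RPKM, GPR143, a receptor of melanosomes, from 3.57 ± 0.730 to 14.1 ± 2.86 RPKM and OCA2 from 8.34 ± 0.653 to 12.8 ± 0.574 RPKM. PAX3, a factor of melanocyte precursors, fell from 2.79 ± 0.502 to 1.01 ± 0.131 RPKM. SOX10 (-0.42) was not called without E7-I or E9-I (adjusted p = 0.181 and 0.133) or in 1 other setting.

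Of 11 neuron and Schwann cell genes, 7 fell and none rose, beside 15.9% and 18.6% of all genes, with a median of -0.91. In the mesenchyme 3 fell and 1 rose, beside 21.6% and 18.2% of all genes. The list summed to 260 and 291 RPKM at H&H 31 and 122 and 129 RPKM at H&H 35 in the epithelium. In the mesenchyme it summed to 216 and 220 RPKM and then 113 and 120 RPKM. The paper found neurites to be very rare and to lie only in mesenchyme below the buds. Whether these genes came from nerve cells was not tested. SCG2, secretogranin II of secretory vesicles, went from 36.03 ± 2.87 to 4.55 ± 0.698 RPKM (log2 change -2.74 with SE 0.13, adjusted p = 2.48e-06). NEFL, the light neurofilament, was at 12.8 and 15.97 RPKM at H&H 31 and 2.02 and 2.01 RPKM at H&H 35 (log2 change -2.34 with SE 0.29, adjusted p = 0.000409). NEFM went from 29.5 ± 4.97 to 5.24 ± 0.359 RPKM and was not called without E7-II (adjusted p = 0.05) or in 2 other settings. TUBB3, the neuronal beta-tubulin, fell from 168 ± 13.6 to 97.2 ± 1.23 RPKM and ELAVL4 from 5.09 ± 0.833 to 2.13 ± 0.0384 RPKM. SYT1 and PIEZO2, 2 of the 4 Merkel cell genes tested, fell by 0.91 and 0.79 on the log2 scale, beside 15.9% of all genes lower. SYT1 stands in both lists and is also among the 7 neuron and Schwann cell genes that fell. The part of such cells in the falls given above for SCG2, CACNG3, DRD5 and DPP6 was not tested.

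Of 28 dermal fibroblast genes, 10 fell and 4 rose, beside 15.9% and 18.6% of all genes. The list median was -0.24, or -0.079 without E7-I and -0.36 without E7-II. FN1, fibronectin, was at 209 and 205 RPKM at H&H 31 and 40.96 and 52.95 RPKM at H&H 35 (log2 change -2.13 with SE 0.11, adjusted p = 3.22e-06), and LUM, lumican, at 23.8 and 13.4 RPKM at H&H 31 and 3.31 and 3.18 RPKM at H&H 35 (log2 change -2.16 with SE 0.21, adjusted p = 9.06e-05). VIM fell from 103 ± 2.92 to 44.1 ± 0.0941 RPKM, COL12A1 from 7.15 ± 0.606 to 0.985 ± 0.265 RPKM and SPARC from 443 ± 11.9 to 285 ± 12.1 RPKM. VIM is not only dermal here, since the paper names epithelial cells stained for VIM as melanocytes and periderm cells. As a share of the mesenchyme level, FN1 was at 73.4% at H&H 31 and 16.5% at H&H 35, LUM at 7.38% at H&H 31 and 1.002% at H&H 35 and SPARC at 64.1% at H&H 31 and 40.9% at H&H 35, while FBN2 was at 17.2% at H&H 31 and 21.1% at H&H 35, like COL1A2 among the 12 with a higher share at H&H 35. Of the 4 rises, POSTN reached 57.7 RPKM, while PRRX1 reached 0.857 ± 0.0915 RPKM and CDERMO-1, the older name of TWIST2, 1.84 ± 0.432 RPKM. The part of dermal cells in these changes, and for VIM that of melanocytes and periderm cells, was not tested.

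Genes of blood and vessels were read beside 34.4% of all genes called. Of 12 red cell genes 2 rose and 2 fell, and of 16 macrophage and leukocyte genes 1 rose and 2 fell. Of 17 endothelial genes 1 rose and 1 fell. Most of these calls were lost on leaving out a library. Median levels in the epithelium were near 0, at 0.373 RPKM at H&H 31 and 0.191 RPKM at H&H 35 for red cell genes. They were 0.310 and 0.152 RPKM for macrophage and leukocyte genes and 0.0796 and 0.110 RPKM for endothelial genes. At such levels log2(RPKM + 1) leaves little room for a call, so few calls do not show steady expression. KLF1, an erythroid transcription factor, was at 0.104 and 0.184 RPKM at H&H 31 and 7.37 and 6.10 RPKM at H&H 35 (log2 change 2.75 with SE 0.18, adjusted p = 1.08e-05). HBZ, an embryonic globin, was at 1.99 and 0.387 RPKM at H&H 31 and 0.0627 and 0.130 RPKM at H&H 35 (log2 change -0.89 with SE 0.28, adjusted p = 0.0379), and its call did not hold without E7-I, M7-I, M7-II, E9-I or E9-II (adjusted p from 0.0686 to 0.146) or in 3 other settings. KLF1 was thus higher and HBZ lower in both H&H 35 libraries, as were 37.5% and 31.5% of all genes. CD3E, a chain of the T cell receptor complex, was at 12.999 and 15.4 RPKM at H&H 31 and 4.81 and 5.45 RPKM at H&H 35 (log2 change -1.31 with SE 0.12, adjusted p = 7.40e-05). CD74 (-1.20) was not called without E7-I, E9-I or E9-II (adjusted p = 0.135, 0.0566 and 0.0941) or in 2 other settings, and CTSS (0.91) was not called without E7-I, E9-I or E9-II (adjusted p = 0.145, 0.0858 and 0.0939) or in 2 other settings. Of 9 muscle genes, MYBPC1 rose from 0.124 ± 0.0257 to 2.46 ± 0.142 RPKM and MYL4 fell from 9.55 ± 0.115 to 5.26 ± 0.342 RPKM.

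The stage change differed between epithelium and mesenchyme in 4730 genes by the interaction test, with 2564 (23% of those tested) more positive in the epithelium and 2166 (19.4%) more positive in the mesenchyme. CPZ, given above for its fall in the epithelium, went from 0.798 ± 0.251 to 6.19 ± 1.39 RPKM in the mesenchyme (interaction -4.96 on the log2 scale, adjusted p = 5.71e-06). It fell in 1 layer and rose in the other.

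NDNF, a secreted neurotrophic factor, went from 7.06 ± 1.17 to 1.12 ± 0.218 RPKM in the epithelium and from 7.49 ± 1.18 to 53.5 ± 0.656 RPKM in the mesenchyme, and F10, coagulation factor X, from 8.31 ± 1.45 to 0.931 ± 0.0214 RPKM and from 1.31 ± 0.109 to 15.2 ± 5.17 RPKM. ADAMTS17, a secreted metalloprotease, went from 70.02 ± 4.33 to 32.3 ± 7.35 RPKM and from 1.08 ± 0.196 to 30.2 ± 6.31 RPKM. These 3 genes also fell in the epithelium and rose in the mesenchyme. PODN, podocan, a small leucine-rich proteoglycan, went the other way, from 1.999 ± 0.277 to 4.74 ± 0.0597 RPKM in the epithelium and from 130.3 ± 10.1 to 9.53 ± 2.29 RPKM in the mesenchyme (interaction 4.60, adjusted p = 3.82e-06). LDHA went from 144 ± 14.9 to 83.5 ± 0.775 RPKM in the mesenchyme while it rose in the epithelium.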

How the data were processed

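Epithelium and mesenchyme of dorsal skin were separated, RNA was extracted with Trizol, libraries were made with a TruSeq kit, and the authors sequenced them as single-end reads. Per the labels and methods, reads were aligned to galGal4 with TopHat2 and processed in Partek, and the authors deposited RPKM values, normalised for transcript length and library size, in 1 table with samples as lines and genes as columns, beside the authors' count of alignments in each library. Versions were not given in the sources used here. Reads per gene are not given in the table used here, so a count test was not run. Deposited RPKM values were changed to log2(RPKM + 1) with no other scaling. Genes of at least 1 RPKM in at least 2 of the 8 libraries were kept. A model with 1 mean for each of the 4 groups was fitted to all 8 libraries with limma 3.58.1 in R 4.3.3 (moderated variance with a mean trend), p-values were adjusted over all 11155 genes, and the threshold was 0.05. The interaction is the stage change in the epithelium minus that in the mesenchyme. Of the gene columns, 1994 carry identifiers with no gene name. For 1308 columns the name was checked, and the unit of all columns was taken to be RPKM. Of 910 list genes in 29 lists, 731 were found in the table (18 by an older name in a RefSeq table), and 661 different genes were tested. Of these, 356 were called and 221 were called in the main and all 19 other settings.

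The members and lists were chosen with earlier results of these data known. Genes were named by a rule. It took the 15 largest rises and falls among called genes with at least 10 RPKM at the higher stage and no overlap. It also took the 10 most abundant genes and the 5 largest interactions of each sign. From each list it took up to 4 called genes with the largest change, or 2 abundant ones where none was called. Rises, falls, abundant genes and interactions were ranked only among genes with a gene symbol. Some genes that the rule names, and some list members, are not reported here. Other list members were chosen after their values were seen. Whether libraries of the same batch number belong together across stages was not stated in the sources used here, and the main fit did not pair them. The deviations of same-numbered libraries from their group means correlated at -0.15 between the epithelium stages and 0.033 between the mesenchyme stages. Layers of the same stage deviated together more, at 0.19 for H&H 31 and 0.32 for H&H 35. The main fit, with its interaction, used no pairing of the layers within a stage. Simulated data were used to test the model before use. Alternatives changed the pseudocount, filter, scaling, block, variance, or left out 1 library. No sequences or coordinates are given.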

Additional observations from a re-analysis of the deposited data

Results flagged for a closer look

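The stage change differed between epithelium and mesenchyme by the interaction test in the 9 genes given here, as the log2 change in the epithelium minus that in the mesenchyme. The difference was 4.60 for PODN (adjusted p = 3.82e-06), 4.07 for NECAB1 (adjusted p = 3.23e-06), 3.99 for FGFBP1 (adjusted p = 6.41e-06), 3.94 for POSTN (adjusted p = 1.31e-05) and 3.93 for LDHA (adjusted p = 6.41e-06). It was -5.04 for F10 (adjusted p = 8.60e-06), -5.004 for ADAMTS17 (adjusted p = 5.71e-06), -4.96 for CPZ (adjusted p = 5.71e-06) and -4.61 for NDNF (adjusted p = 3.34e-06). All 9 kept this call in each setting run. POSTN also rose in the mesenchyme, from 198 ± 12.6 to 319 ± 75.1 RPKM, so for POSTN the layers differed in the size of the rise.

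The same test was passed by 54 of 54 mitosis genes and by 39 of 44 DNA replication genes, beside 42.4% of all genes tested. With 2 libraries a group, no test for single outlying libraries was possible.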

How the results depend on the processing

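The counts of 2070 higher, 1772 lower and 4730 differing genes stayed within 1.5 times of these values in most settings. Leaving out 1 library at a time gave from 1305 to 2200 higher, from 1171 to 1913 lower and from 3651 to 4636 differing genes. The lowest counts came without H&H 31 epithelium I (1305 higher and 1171 lower) and, for rises, without H&H 31 epithelium II (1366). With each gene's own variance 1436 genes were higher, 1247 lower and 3359 differing. The batch number as a replicate block gave 2032 higher and 1778 lower genes. Same-numbered libraries of the epithelium stages deviated with a correlation of -0.15, so a crossed pairing was added after seeing the data and gave 2360, 1956 and 5195. Of 141 named genes 137 were called, 111 of them in all settings and 26 not in all. Some small changes turned sign. RPLP1 went from 0.064 to -0.054 with equal sums and ranged from -0.028 (without H&H 31 epithelium I) to 0.16 on leaving out libraries, and it was called at 0.31 (limma adjusted p = 0.0109) with quantile normalization. RPS24 went from 0.083 to -0.034 with equal sums and -0.066 with quantile normalization, which also took RPS20 from 0.12 to -0.075 and EEF1A from 0.38 to 0. Equal sum scaling multiplies all values of a library by 1 factor, and quantile normalization gives genes of equal rank equal values. Either step by itself can turn a small change or set it to 0. Beyond this, the cause was not tested. Reads per gene were not used here, so no counting error is given for low RPKM values.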

Other observations

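Genes of retinoic acid binding and turnover changed in both directions, with 5 of 13 higher and 4 lower, beside 18.6% and 15.9% of all genes. The list median log2 change was -0.18, or -0.014 without E7-I, -0.035 without E9-I and 0.077 with a minimum of 5 RPKM. The rises numbered 3 without E7-I, E9-I, M7-I or M7-II, 2 without E7-II and 1 without E9-II. CRABP-I, the older name of CRABP1, a binding protein for retinoic acid, was at 23.7 and 16.9 RPKM at H&H 31 and 1.67 and 1.80 RPKM at H&H 35 (log2 change -2.94 with SE 0.21, adjusted p = 1.69e-05). DHRS3, which reduces retinaldehyde to retinol, was at 27.6 and 24.5 RPKM at H&H 31 and 5.22 and 4.16 RPKM at H&H 35 (log2 change -2.25 with SE 0.12, adjusted p = 3.98e-06). RBP5 fell from 27.95 ± 1.24 to 13.6 ± 1.97 RPKM and the receptor RARB from 47.9 ± 5.47 to 23.98 ± 1.36 RPKM. CYP26B1, which breaks down retinoic acid, rose from 0.692 ± 0.0100 to 2.89 ± 0.687 RPKM (log2 change 1.19 with SE 0.13, adjusted p = 0.000216). Of 9 EGF ligands and receptors, 3 rose and 2 fell, beside 18.6% and 15.9% of all genes. ERBB2 was at 22.5 and 26.2 RPKM at H&H 31 and 54.5 and 48.2 RPKM at H&H 35 (log2 change 1.05 with SE 0.12, adjusted p = 0.000232), the ligand AREG rose from 1.67 ± 0.224 to 3.34 ± 0.510 RPKM, and the receptor ERBB4 fell from 1.22 ± 0.241 to 0.254 ± 0.0850 RPKM. TGFA (0.65) was not called without E7-II or E9-I (adjusted p = 0.154 and 0.143) or in 2 other settings.

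Of 23 genes of cholesterol synthesis and uptake, 6 rose and 1 fell in the epithelium (median 0.22, or -0.015 without E9-I and 0.38 without E9-II, from 2 to 11 rises over the settings), while 2 rose and 13 fell in the mesenchyme. The epithelial rises numbered 3 without E7-I, E7-II or E9-I and 11 without E9-II. Of all genes, 18.6% rose and 15.9% fell in the epithelium, and 18.2% rose and 21.6% fell in the mesenchyme. VLDLR, a lipoprotein receptor, was called in every setting and rose in the epithelium from 1.48 ± 0.0123 to 4.93 ± 0.750 RPKM (log2 change 1.25 with SE 0.20, adjusted p = 0.00134). PMVK (0.77), an enzyme of the mevalonate pathway, was not called without E7-I or E9-I (adjusted p = 0.0758 and 0.0951) or in 1 other setting. SQLE (0.71), squalene epoxidase, was not called with a variance for that gene alone (adjusted p = 0.0573). Of 32 genes of fatty acid synthesis, binding and storage, 11 rose and 7 fell, beside 18.6% and 15.9% of all genes. These numbered 7 and 4 without E7-I and 5 and 4 without E9-I, and 5 rose without E7-II. FADS2, a desaturase, was at 17.8 and 20.04 RPKM at H&H 31 and 5.81 and 4.996 RPKM at H&H 35 (log2 change -1.64 with SE 0.13, adjusted p = 2.46e-05). PPARG, a regulator of lipid genes, rose from 9.91 ± 0.816 to 17.9 ± 0.736 RPKM, LPL, lipoprotein lipase, from 4.63 ± 0.433 to 9.01 ± 1.45 RPKM and PLIN2, a lipid droplet protein, from 25.04 ± 3.32 to 42.4 ± 4.51 RPKM.

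Some large changes lay in genes that the table gives by identifier only, chosen here after their values were seen. Such genes were not ranked among the largest rises or falls. ENSGALG00000005727 rose from 14.8 ± 3.47 to 56.7 ± 1.08 RPKM and ENSGALG00000017398 from 2.45 ± 0.724 to 44.4 ± 1.21 RPKM. ENSGALG00000003512 fell from 145 ± 47.3 to 1.46 ± 0.242 RPKM and ENSGALG00000021867 from 65.6 ± 6.63 to 4.66 ± 0.462 RPKM.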
